A study of Mus musculus with 9 samples.

Results

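Rims1, Tenm2, Stum, Nptx2, Pcp4 and Ank1 are 6 genes known mainly from neurons or from other tissues that stood high in the detrusor, the smooth muscle coat of the bladder, of newborn mice. All probe sets of these 6 symbols were taken from the platform annotation, which gave 14 probe sets out of 34945 with 1 gene symbol (6 genes out of 18193). The genes were chosen by the detrusor intensities themselves, which lay far above those of the other layers on these same arrays, so every detrusor value below is a description and carries no test. Levels in urothelium against stroma, and on postnatal day 2 against day 1, did not enter that choice and were tested.

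The 9 arrays covered detrusor, urothelium (the lining epithelium) and stroma (the connective tissue between them), with 3 arrays a layer, each from tissue cut out of 8 micron frozen sections under a laser capture microscope. Detrusor had 2 arrays from postnatal day 1 and 1 from day 2, while urothelium and stroma each had 1 from day 1 and 2 from day 2. All animals, in every layer, were FVB/N mice carrying the SMGA/EGFP transgene, in which a green fluorescent protein is named together with smooth muscle gamma actin, and no group without it was used. All were at Theiler stage 27 and their sex was not recorded. Samples were not pooled, and their RNA went through 2 rounds of amplification. The labels do not tie samples to animals, so p-values cover no more than the sample to sample spread seen here, and that spread may be technical.

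In neurons, transmitter release depends on a protein scaffold at the presynaptic membrane, and adhesion and secreted proteins hold the facing receptors in place. Rims1 belongs to the release scaffold, Tenm2 to the adhesion proteins and Nptx2 to the secreted organisers, while Pcp4 tunes calmodulin and Ank1 ties membrane proteins to the spectrin skeleton. Smooth muscle of the bladder contracts when calcium enters the cell and binds calmodulin, in response to transmitters from nerve endings that run between the muscle bundles.

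The captured layers were checked with marker genes on arrays whose median probe set intensity lay between 133 and 388. The 12 smooth muscle markers summed to between 449025 and 670263 intensity units on detrusor arrays, 39462 to 432810 on urothelium arrays and 92822 to 233198 on stroma arrays. The high urothelium value belonged to replicate 3, where Myh11, the smooth muscle myosin heavy chain, reached 69.4% and Actg2, smooth muscle gamma actin, 94.9% of their detrusor means. Of these 12 markers, 9 were called higher in detrusor than in urothelium and 4 higher than in stroma (limma, adjusted p under 0.05), where 8.05% and 3.12% of all genes were. Urothelial markers summed to between 2476 and 4352 on detrusor arrays, 217897 and 333919 on urothelium arrays and 16567 and 178341 on stroma arrays. Stromal markers summed to between 271179.75 and 340778 on detrusor arrays, 123072 and 248767 on urothelium arrays and 375168 and 563709.8 on stroma arrays. The ratio of the 3′ to the 5′ probe set of Actb was 2.27 to 7.49 on detrusor arrays, 5.32 to 8.49 on urothelium arrays and 5.0 to 24.7 on stroma arrays. For Gapdh the ratio was higher, at 15.9 to 34.7 on detrusor arrays, 19.1 to 23.4 on urothelium arrays and 15.3 to 31.8 on stroma arrays. In bulk tissue of this kind, fewer cells of a type and less RNA per cell cannot be told apart.

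Promoter windows are shown as a description. The 6 genes moved together over the arrays, which follows in part from how they were chosen, and shared control was not tested. RefSeq (GRCm38.p6) gave a window of 300 bases, from 250 before to 50 after the gene start, for 4 of the 6 genes. The windows lie at chr1:22806109-22806408 on the minus strand for Rims1, chr11:36944192-36944491 on the minus strand for Tenm2, chr1:180483455-180483754 on the minus strand for Stum and chr16:96467356-96467655 on the plus strand for Pcp4. Capitals mark matches to the E-box, CANNTG, searched on both strands.
Rims1: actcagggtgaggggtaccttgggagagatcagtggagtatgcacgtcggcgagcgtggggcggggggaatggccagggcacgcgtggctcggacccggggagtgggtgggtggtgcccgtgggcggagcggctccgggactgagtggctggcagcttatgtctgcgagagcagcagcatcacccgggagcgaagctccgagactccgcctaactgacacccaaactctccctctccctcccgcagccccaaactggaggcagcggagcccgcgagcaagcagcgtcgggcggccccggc
Tenm2: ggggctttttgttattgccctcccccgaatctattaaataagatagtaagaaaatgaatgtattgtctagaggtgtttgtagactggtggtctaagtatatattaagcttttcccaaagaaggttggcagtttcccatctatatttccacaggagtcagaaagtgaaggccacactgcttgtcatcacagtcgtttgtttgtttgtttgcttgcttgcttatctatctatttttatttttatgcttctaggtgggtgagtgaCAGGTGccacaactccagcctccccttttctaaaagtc
Stum: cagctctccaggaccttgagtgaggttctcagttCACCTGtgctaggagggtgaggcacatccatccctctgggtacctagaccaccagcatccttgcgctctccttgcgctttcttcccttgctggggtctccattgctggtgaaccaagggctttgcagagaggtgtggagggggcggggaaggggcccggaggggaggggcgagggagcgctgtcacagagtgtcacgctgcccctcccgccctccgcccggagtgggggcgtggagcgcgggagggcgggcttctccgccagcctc
Pcp4: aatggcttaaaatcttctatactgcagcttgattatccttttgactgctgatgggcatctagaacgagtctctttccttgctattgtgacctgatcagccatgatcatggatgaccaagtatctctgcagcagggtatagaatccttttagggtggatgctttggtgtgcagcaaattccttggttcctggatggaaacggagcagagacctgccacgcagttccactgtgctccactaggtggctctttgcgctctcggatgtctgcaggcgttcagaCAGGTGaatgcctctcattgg
The start used for Tenm2 lies inside the annotated gene, so other starts of that gene were not shown. A CArG box, the sequence that serum response factor binds in smooth muscle genes, matched none of the 4 windows, and it was present in 1.63% of the 32851 windows of this length. A MEF2 site matched none either, against 3.19% of all windows. Each E-box found, in Tenm2, Stum and Pcp4, read CAGGTG on 1 of the strands. An E-box of any kind was present in 72.3% of all windows and CAGGTG, looked up after the matches were seen, in 20.2%. Rims1 held none of these motifs in its window.

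Rims1 (chr1:22285972-22806158, GRCm38.p6), a scaffold of the presynaptic active zone that tethers vesicles near calcium channels, was measured by 2 probe sets, both with their highest mean in detrusor. Its brighter probe set, 1435667_at, read 9004, 13717 and 17352.5 intensity units in detrusor, 87.5, 10.8 and 3478 in urothelium, and 292, 25.2 and 458 in stroma. The 3 detrusor values lay above all 6 others, and urothelium replicate 3 stood well above the other urothelium arrays. On the log2 scale, with a pseudocount of 39.31 added to every intensity, the means were 13.66 ± 0.48 in detrusor, 8.14 ± 3.23 in urothelium and 7.78 ± 1.56 in stroma (SD, n = 3 each). Detrusor was thus 5.52 log2 units above urothelium and 5.88 above stroma. This scale understates the change of genes with low values, and the same holds for every log2 difference below. The second probe set, 1438305_at, read 1979, 528 and 3219 in detrusor, 76.4, 112 and 193 in urothelium, and 210.45, 106 and 1463 in stroma. It separated detrusor from urothelium by 3.28 log2 units without overlap, but its lowest detrusor value was under stroma replicate 3 and the difference from stroma was 2.03, or 3.02 without stroma replicate 3.

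Tenm2 (chr11:36006656-37237053), a teneurin whose long extracellular part binds latrophilins across the synapse, had 4 probe sets that did not show 1 picture. Probe set 1457273_at read 23389.62, 27337 and 21009 in detrusor, 349, 50.6 and 4281 in urothelium, and 147, 149 and 2612 in stroma. Its detrusor arrays were close to each other (14.54 ± 0.19 log2), while replicate 3 stood high both in urothelium (9.06 ± 2.82) and in stroma (8.82 ± 2.21; SD, n = 3 each). The differences were 5.48 log2 units from urothelium and 5.72 from stroma. Probe set 1420718_at was dimmer, with 654, 327 and 1019 in detrusor, 123, 109.83 and 23.1 in urothelium, and 55.7, 119.92 and 249 in stroma. Its detrusor values also lay above all others, and it was 2.49 and 1.98 log2 units higher in detrusor than in urothelium and stroma. The other 2 probe sets, 1454424_at and 1432988_at, were below the filter on low values, which asked for a signal at or above the array median on at least 3 arrays. Their detrusor values overlapped those of both other layers, and they differed by 0.11 and 0.70 log2 units from urothelium and by 0.38 and -0.13 from stroma.

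Stum (chr1:180432373-180483519), whose Drosophila counterpart is needed for mechanical sensing by proprioceptive neurons, had the single probe set 1440534_at. It read 10782, 10889 and 15986 in detrusor, 268, 21.0 and 3363 in urothelium, and 505, 18.5 and 910.49 in stroma. Detrusor stood above every other array, and the lowest values in the other layers were near the bottom of the scale. The means were 13.60 ± 0.32 in detrusor, 8.64 ± 2.93 in urothelium and 8.28 ± 2.14 in stroma (log2, SD, n = 3 each), which put detrusor 4.96 above urothelium and 5.32 above stroma.

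Nptx2 (chr5:144545887-144557478), a secreted pentraxin that gathers AMPA-type glutamate receptors at synapses, was higher in detrusor on both of its probe sets. Probe set 1420720_at read 24666, 34032 and 26649 in detrusor, 298, 102 and 9569 in urothelium, and 1669.8, 1038 and 372 in stroma. Urothelium replicate 3 reached 33.6% of the detrusor mean, the highest such share among the brightest probe sets of the 6 genes. Its log2 means were 14.78 ± 0.24 in detrusor, 9.59 ± 3.21 in urothelium and 9.83 ± 1.05 in stroma (SD, n = 3 each), and detrusor exceeded urothelium by 5.19 and stroma by 4.95. The dimmer probe set, 1449960_at, read 701, 723 and 1113 in detrusor, 105, 100.5 and 159 in urothelium, and 118, 91.4 and 162 in stroma. The spread here was small in all 3 layers (0.36, 0.28 and 0.31 log2 SD), and detrusor was higher by 2.45 and 2.43. It passed the filter through the detrusor arrays alone.

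Pcp4 (chr16:96467606-96525793), a small calmodulin-binding protein named after Purkinje cells, had the single probe set 1460214_at. It read 22838, 42037 and 18784 in detrusor, 524, 51.3 and 2742 in urothelium, and 713, 193 and 1169.7 in stroma. The lowest detrusor value was several times the highest value outside detrusor, which was again urothelium replicate 3. The log2 means were 14.68 ± 0.61 in detrusor, 9.03 ± 2.47 in urothelium and 9.22 ± 1.23 in stroma (SD, n = 3 each), with differences of 5.65 from urothelium and 5.46 from stroma.

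Ank1 (chr8:22974836-23150501), the ankyrin first known from red blood cells and also made in short forms in striated muscle, had 4 probe sets that went different ways. Probe set 1419421_at read 45547, 68977 and 58655 in detrusor, 589, 384 and 10265 in urothelium, and 2839, 583 and 2285 in stroma. Detrusor lay above all other arrays, at 15.80 ± 0.30 against 10.45 ± 2.51 in urothelium and 10.65 ± 1.20 in stroma (log2, SD, n = 3 each), which are differences of 5.35 and 5.15. Probe set 1425677_a_at read 603, 710.43 and 1141 in detrusor, 77.2, 16.6 and 282 in urothelium, and 99.7, 132 and 66.2 in stroma, and was 2.70 and 2.61 log2 units higher in detrusor. Probe set 1443291_at ran the other way, with 129, 37.6 and 119.97 in detrusor, 191, 52.1 and 265 in urothelium, and 422, 573 and 403 in stroma. All 3 stroma values lay above all 3 detrusor values, and detrusor was -1.97 log2 units from stroma and -0.55 from urothelium, with overlap in the second case. Probe set 1452512_a_at was below the filter on all arrays, with differences of 0.01 and -0.11. The place of each probe set within its gene is not given in the sources used here, so these differences could not be set against transcript forms.

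**Figure D1:**
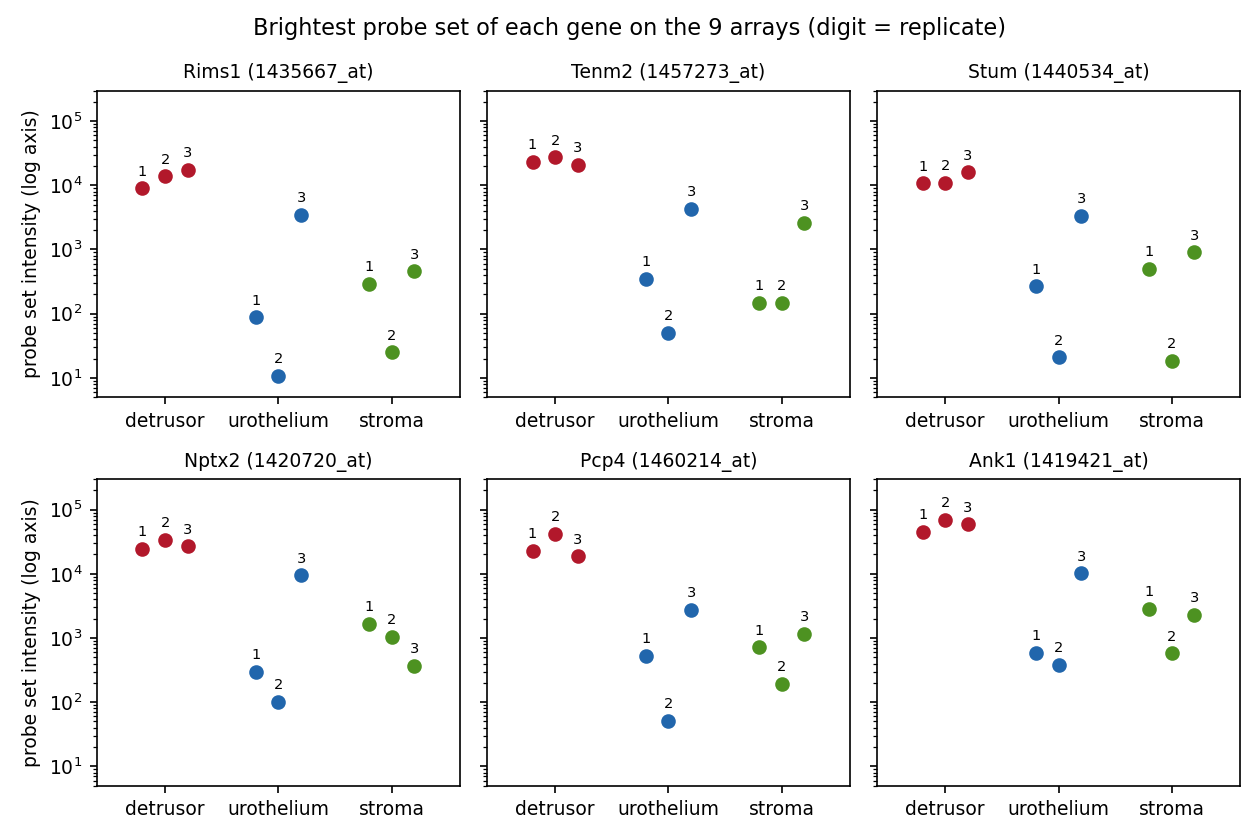
Intensity (log axis) of the brightest probe set of each of the 6 genes on each of the 9 arrays, by layer, with the digit giving the replicate. In all 6 panels the 3 detrusor points lie above the 6 others, and urothelium replicate 3 is the highest array outside detrusor.

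Of the 14 probe sets, 11 passed the filter on low values, 2 of them (the dimmer probe sets of Tenm2 and Nptx2) through detrusor arrays alone. Over all 14, 10 probe sets were above urothelium and 9 above stroma without overlap of the arrays, where 18.4% and 10.9% of the 22207 probe sets that passed were. The lower direction held 0 against urothelium and 1 against stroma, the Ank1 probe set 1443291_at, beside 17% and 13.7% of all. Without overlap against both layers at once there were 9, beside 7.54% of all. These counts follow from how the genes were chosen. The median difference over the 14 was 2.99 log2 units from urothelium and 2.52 from stroma, beside 0.03 and -0.14 over all probe sets that passed. Taking the brightest probe set of each of the 6 genes instead gave medians of 5.42 and 5.39. The members just inside the separation from stroma were the Tenm2 probe set 1420718_at, with 327 as its lowest detrusor and 249 as its highest stroma value, and just outside was the Rims1 probe set 1438305_at, with 528 and 1463.

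**Figure D2:**
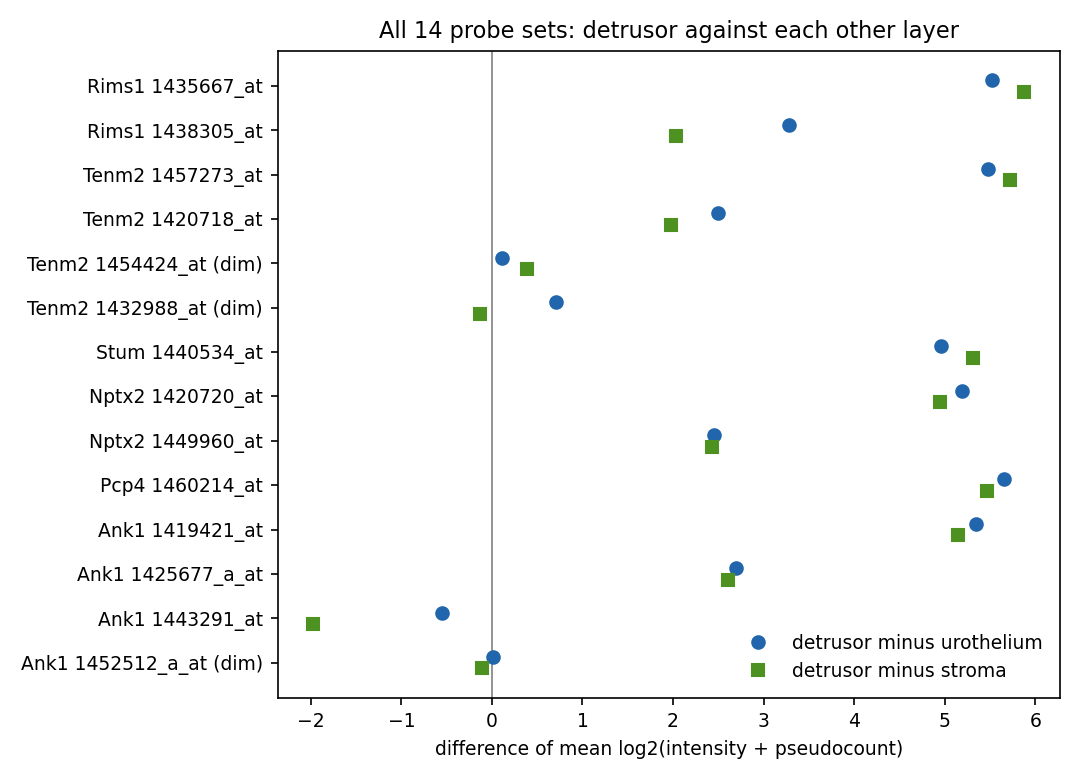
Difference of mean log2(intensity + pseudocount) between detrusor and urothelium (circles) and between detrusor and stroma (squares) for each of the 14 probe sets. The brightest probe set of each gene lies between 4.95 and 5.88, the second-brightest ones between 1.98 and 3.28, and Ank1 1443291_at at -0.55 and -1.97.

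The separation was present on both postnatal days. On day 1 (2 detrusor arrays, 1 urothelium array and 1 stroma array) the 6 brightest probe sets were 7.05 to 8.42 log2 units higher in detrusor than in urothelium and 4.09 to 7.09 higher than in stroma. On day 2 (1 detrusor array, 2 urothelium arrays and 2 stroma arrays) the differences were 3.89 to 4.70 and 4.90 to 6.60. Pcp4 gave the highest difference from urothelium on day 1, 8.42, and Rims1 the highest on day 2, 4.70. Among the dim probe sets, Tenm2 1454424_at was above urothelium by 1.89 on day 1 and differed from it by -2.08 on day 2.

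The 6 genes rose and fell over the arrays in much the same order. Over the 9 arrays, Pearson's r of log2 values between their brightest probe sets ran between 0.86 and 0.99 over 15 pairs, with a median of 0.96. The arrays share 3 layers and the choice of genes fixed the high detrusor values, so these figures describe the pattern and are not a test. Within detrusor, each gene's arrays ranged between 67.4% and 151% of its own detrusor mean. Pcp4 was the most uneven, at 81.9%, 151% and 67.4%, and Tenm2 the most even, at 97.8%, 114% and 87.9%.

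For each gene, the 3 other genes with the highest r over the 9 arrays were named. Rims1 was followed most closely by Synpo2, an actin-binding protein of muscle (r = 0.99), Snd1, an RNA-binding nuclease (0.99), and P2rx1, the ATP-gated channel of smooth muscle (0.99). Tenm2 was followed by the calcium channel subunit gene Cacna2d1 (0.98), Ankrd9 (0.98) and Mical3, whose product acts on actin (0.97). Stum was followed by Synpo2 (0.99), the adhesion protein gene Lims2 (0.98) and Mical3 (0.98). For Nptx2 they were Sh3bgr (0.99), Wscd2 (0.99) and Rbfox3 (0.98), the splicing factor known as the neuronal marker NeuN. For Pcp4 they were Mamdc2 (0.99), the calcium channel adaptor gene Stac (0.99) and Tnnt1, the slow skeletal troponin T (0.98). For Ank1 they were P2rx1 (0.996), Snd1 (0.99) and Lmod1, a leiomodin of smooth muscle (0.99). These 18 places were filled by 14 genes, of which Synpo2 and Lmod1 belong to the list of smooth muscle markers.

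Rbfox3 shows how close such a pattern was. It read 16389.6, 27831 and 14477 in detrusor, 335.39, 80.4 and 4275 in urothelium, and 686, 534 and 602 in stroma. As with the 6 genes, its detrusor arrays stood above all others and urothelium replicate 3 came next.

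The neuronal content of the captured tissue was read from 25 neuronal markers, of which 23 were measured and 17 passed the filter. None of the 17 was called between detrusor and stroma by limma, where 5.84% of all genes were, and 2 had an unadjusted p under 0.05. Against urothelium, 5 rose in detrusor (Stmn3, Nefl, Nefm, Gap43 and Hand2) and 1, Uchl1, fell, where 16.4% of all genes were called. Gap43 passed the filter through the detrusor arrays alone, so its high detrusor values brought it into this test. Nefl and Nefm would not have passed without the detrusor arrays either. The summed intensity of the 23 markers was 15169 to 21267 in detrusor, 9862 to 16889.63 in urothelium and 13235 to 21379 in stroma, so the detrusor and stroma ranges overlapped. A large part of the detrusor sum was Hand2, a transcription factor of autonomic neurons and also of mesenchyme, which read 9246, 11399 and 8376 in detrusor, 13.6, 554 and 1675 in urothelium, and 3570, 1510 and 754 in stroma. Without Hand2, a sum taken after its values were seen, the other 22 summed to between 6792 and 9868 in detrusor, 9309 and 16876 in urothelium, and 10365 and 19869 in stroma. All detrusor arrays were then below all stroma arrays. Uchl1, which went the other way, stayed in that sum, with 620, 445 and 524 in detrusor, 9875, 4490 and 6844 in urothelium, and 1360, 1170 and 5090 in stroma. The order of the sums thus depends on which markers are summed, and the part of neurons in the detrusor signal was not tested. Tubb3, the neuronal tubulin, read 73.6, 228 and 44.5 in detrusor, 11.6, 3.89 and 67.0 in urothelium, and 136, 645 and 34.2 in stroma. Snap25, the nerve terminal fusion protein, read 28.1, 13.8 and 39.7 in detrusor, 14.2, 18.1 and 14.8 in urothelium, and 865.5, 48.4 and 18.9 in stroma. Both were below the filter, together with Slc18a3, Th, Nefh and Phox2a. Of 5 glial markers tested, limma called 0 between detrusor and stroma, and 1 had an unadjusted p under 0.05. With no detection calls in the table, a low intensity does not show absence.

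Skeletal muscle markers also stood high in detrusor, with sums of 122623 to 147662 there, 1375 to 33876 in urothelium and 3053 to 12688 in stroma, and 4 of 10 tested (Myh8, Ckm, Tnnt3 and Tnnc2) were called higher in detrusor than in stroma by limma, where 3.12% of all genes were. Acta1, skeletal muscle actin and the brightest of them, read 61510, 78798 and 70168 in detrusor. The markers differed in how evenly they stood on the detrusor arrays. Tnnc2, the fast skeletal troponin C, was even, at 99.8%, 90.5% and 109.8% of its detrusor mean, as were Acta1, between 87.7% and 112%, and Ckm, the muscle creatine kinase, at 115%, 81.4% and 103%. Acta1 was not called against stroma (limma, adjusted p = 0.163). Of the called markers, Myh8 and Ckm would not have passed the filter without the detrusor arrays. The called markers Myh8 and Tnnt3 were less even, at 182%, 44.0% and 73.7% and at 115%, 62.3% and 123%. Myh3 and Myod1, neither of them called, varied more. Myh3, the embryonic skeletal myosin heavy chain, stood at 288%, 7.07% and 4.88% of its detrusor mean, and the skeletal muscle regulator Myod1 at 256%, 14.6% and 29.0%. The 6 genes ranged between 67.4% and 97.8% on detrusor replicate 1, where Myh3 and Myod1 were highest, between 86.8% and 151% on replicate 2, and between 67.4% and 129.9% on replicate 3. Over the 3 detrusor arrays together, Tnnc2, Acta1 and Ckm lay within the range that the 6 genes covered. Array by array, Tnnc2 (99.8%) and Ckm (115%) were above it on replicate 1, and Ckm (81.4%) was below it on replicate 2. The part of skeletal muscle in the detrusor signal of the 6 genes was not tested. For Ank1, 3 erythroid markers were tested, and limma called 0 between detrusor and stroma, with 0 at an unadjusted p under 0.05.

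**Figure D3:**
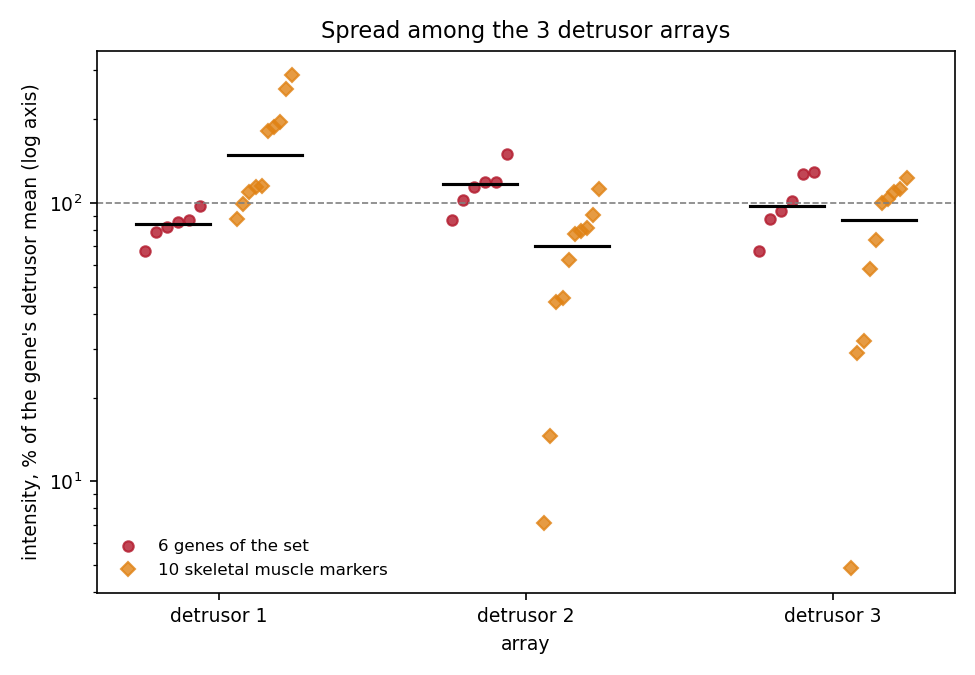
Intensity on each detrusor array as a percentage of the gene's own detrusor mean (log axis) for the 6 genes (circles) and 10 skeletal muscle markers (diamonds), with bars at the medians. The 6 genes lie between 67.4% and 151%, and the skeletal muscle markers between 4.88% and 288%.

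Outside detrusor, levels of the 6 genes were set as a percentage of each gene's own detrusor mean. Urothelium replicate 3 held 9.83% to 33.6% (median 22.0%), while urothelium replicates 1 and 2 held 0.655% to 2.14% and 0.0806% to 0.665%. Stroma replicates 1, 2 and 3 held 0.613% to 5.87%, 0.147% to 3.65% and 1.31% to 10.9%. The 12 smooth muscle markers had medians of 30.0% on urothelium replicate 3, 2.05% and 1.28% on the other urothelium arrays, and 9.78%, 3.18% and 13.9% on the stroma arrays. By these medians the 6 arrays stood in the same order for the 6 genes as for the smooth muscle markers, apart from urothelium replicate 1 and stroma replicate 2, which changed places. The part of captured smooth muscle in their urothelium and stroma values was not tested. Tenm2 reached its highest stroma share, 10.9%, on replicate 3, whereas Nptx2 had its lowest there, 1.31%.

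**Figure D4:**
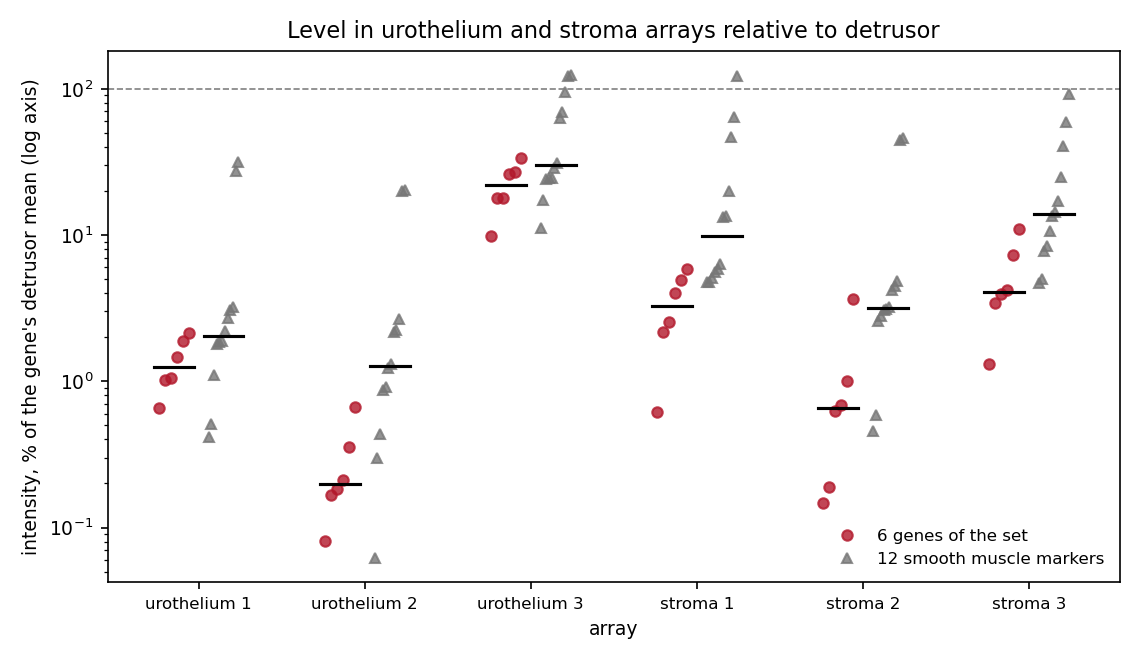
Intensity on each urothelium and stroma array as a percentage of the gene's detrusor mean (log axis) for the 6 genes (circles) and 12 smooth muscle markers (triangles), with bars at the medians. On urothelium replicate 3 both medians are highest, at 22.0% and 30.0%, and on every array the median of the 6 genes is below that of the smooth muscle markers.

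Urothelium and stroma were then compared, a contrast that the choice of genes did not use. The dimmer probe sets of Tenm2 and Nptx2, which passed the filter through detrusor arrays alone, were left out here. None of the other 9 member probe sets was called by limma (adjusted p under 0.05), in a comparison where 0.176% of probe sets were called, and 1 had an unadjusted p under 0.05. That was Ank1 1443291_at, which was lower in urothelium than in stroma by -1.43 ± 0.60 log2 units (SE, limma, adjusted p = 0.272). The other 8 had adjusted p-values between 0.520 and 0.970 in limma, with standard errors between 0.65 and 1.30 log2 units. Among these 8, Rims1 1438305_at and Ank1 1425677_a_at were each at or above the array median on only 1 array outside detrusor. They would not have passed the filter without their detrusor arrays, so their high detrusor values brought them into this test. Without overlap, 0 of the 14 probe sets were higher in urothelium (8.39% of all) and 2 were lower (11.9% of all), Ank1 1443291_at and the dim Tenm2 1432988_at. Of the brightest probe sets, Rims1, Tenm2 and Stum differed by 0.36, 0.23 and 0.36 log2 units and Nptx2, Pcp4 and Ank1 by -0.24, -0.19 and -0.20. These signs were not stable, and quantile normalization or median centring turned those of Nptx2 and Pcp4. Without urothelium replicate 3 and stroma replicate 3, Nptx2 1420720_at was called lower in urothelium, by -2.64 log2 units (limma, adjusted p = 0.0432), and Rims1 1435667_at stood at -0.88. By day, all 6 brightest probe sets were lower in urothelium on day 1 (-1.05 to -3.60, 1 array a layer) and higher on day 2 (0.87 to 2.13, 2 arrays a layer). The test of layer by day called none of the 9 probe sets, and Pcp4, the 1 with an unadjusted p under 0.05, had an adjusted p of 0.825 in limma.

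Postnatal day 2 was compared with day 1 with layer as a covariate, over 5 and 4 arrays. None of the same 9 probe sets was called, where 0.0135% of all probe sets were, and 0 had an unadjusted p under 0.05 in limma. Among them, Rims1 1438305_at and Ank1 1425677_a_at would again not have been tested without their detrusor arrays. All 9 differences were above 0, between 0.46 for Ank1 1419421_at and 1.84 ± 0.99 for Tenm2 1457273_at (SE, limma, adjusted p = 0.749). The Tenm2 detrusor arrays themselves gave no such order, with 21009 on day 2 and 23389.62 and 27337 on day 1. Without urothelium replicate 3 and stroma replicate 3, both from day 2, the difference was -0.47 for Ank1 1419421_at and -0.05 for Rims1 1435667_at.

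Genes that work with the 6 were followed through 5 lists with 107 genes, of which 95 were measured here and 80 passed the filter, 1 probe set standing for each gene. In detrusor against stroma, 7 rose and 2 fell by limma (10 and 1 with median centring), where 5.84% of 13064 genes were called (3.12% higher and 2.72% lower). Leaving out detrusor replicate 1, 2 or 3 gave 4, 3 and 2 calls, of which 3, 3 and 2 were among the 9. Rab3c and Gria1, which had passed the filter through the detrusor arrays alone, then failed it, but the counts were the same when they were kept in. In detrusor against urothelium 13 rose and 3 fell, where 16.4% of genes were called (8.05% higher and 8.37% lower). Rab3c, Gria1 and Gap43, all among these 16, had passed the filter through the detrusor arrays alone. Pln, Pcp4l1 and Cacna1c, also among them, would not have passed without the detrusor arrays. Leaving out detrusor replicate 1, 2 or 3 or urothelium replicate 2 gave 9, 10, 7 and 9 calls, of which 9, 8, 7 and 8 were among the 16, while array weights gave 27. Between urothelium and stroma limma called 0, beside 0.23% of genes, with 19 at an unadjusted p under 0.05, but it called 5 without stroma replicate 3.

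Around Rims1, 25 genes of presynaptic release were tested. Rab3c, a vesicle GTPase of the kind that binds Rims proteins, rose in detrusor against stroma by 3.33 ± 0.66 log2 units (SE, limma, adjusted p = 0.0196), with 1429.74, 1344 and 1072 in detrusor and 119, 14.5 and 219 in stroma. It passed the filter through the detrusor arrays alone, and with the same probe sets tested it lost this call without any single detrusor replicate (limma, adjusted p between 0.0620 and 0.0798). The other Rab3c probe set that passed the filter differed from stroma by 2.01 and was not called. Ppfia4, a liprin of the release scaffold, rose by 2.17 ± 0.53 (limma, adjusted p = 0.0396) on the probe set used, while its other probe set differed by 0.09. The call was lost without any single detrusor replicate, without stroma replicate 1 or 3, without stroma 3 and urothelium 3 together, or with no filter. Without urothelium replicate 1 or 2 it was lost too, since the other probe set then stood for the gene. Unc13c, a vesicle priming factor, fell by 3.06 (limma, adjusted p = 0.0165), with 409, 1710.5 and 433 in detrusor and 5500.45, 9557 and 4012 in stroma, and lost the call without detrusor replicate 1 or 3. The paralogs of Rims1 were not called, with differences of -0.61 for Rims2, -1.79 for Rims3 and -1.29 for Rims4 (limma, adjusted p between 0.219 and 0.622). The other Rims3 probe set differed by 1.20, so its probe sets disagreed in sign. Over the list the median difference was -0.22, beside -0.16 over all genes.

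Around Tenm2, 9 teneurins, latrophilins and their partners were tested, and limma called 0 between detrusor and stroma, with 0 at an unadjusted p under 0.05 (median -0.34). Tenm1 differed by -0.88, Tenm3 by 0.33 and Tenm4 by -0.17, or 0.24 with median centring (limma, adjusted p between 0.634 and 0.844). Tenm3 read 7305, 6298 and 7148 in detrusor, 2130.1, 1826 and 1915 in urothelium, and 9122, 5872 and 3040.2 in stroma. It was high in both detrusor and stroma, and against urothelium it rose by 1.80 ± 0.38 (limma, adjusted p = 0.00872). Flrt2, which codes for a membrane protein that binds latrophilins, rose in detrusor against urothelium by 2.82, and its relative Flrt3 fell by 2.38 (limma, adjusted p = 0.0175 and 0.0171).

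Around Nptx2, 6 pentraxins and AMPA receptor subunits were tested. Gria1 rose in detrusor against stroma by 2.67 ± 0.63 (limma, adjusted p = 0.0347) at low levels, with 353, 434 and 197 in detrusor and 23.7, 4.18 and 22.8 in stroma. It passed the filter through the detrusor arrays alone, so its high detrusor values brought it into this test. The call was lost without any single stroma replicate, with the pseudocount at the 5th percentile, with array weights, or with day as a covariate. With the same probe sets tested, it was also lost without any single detrusor replicate. Gria4 fell by 2.01 (limma, adjusted p = 0.0298), with 318, 291 and 165 in detrusor and 667, 1553 and 1367 in stroma. It lost the call without any single detrusor replicate or without stroma replicate 2 or 3. The call was also lost without stroma 3 and urothelium 3 together, with median centring, or with day as a covariate. The other Gria4 probe set that passed the filter differed from stroma by -0.82 and was not called. Nptx1, the close paralog, differed by -0.64 ± 0.58 (limma, adjusted p = 0.544), with 125, 368 and 134 in detrusor and 526, 269 and 209.96 in stroma.

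Around Pcp4, 18 calmodulin pathway genes were tested, with a median of 0.92 beside -0.16 over all genes. Camk2g, the calmodulin-dependent kinase subunit of smooth muscle, rose in detrusor against stroma by 2.91 ± 0.34 (limma, adjusted p = 0.00214), with 12489, 13026 and 18617 in detrusor and 2189.6, 1491 and 2059.63 in stroma. Ppp3cb, a catalytic subunit of calcineurin, rose by 1.31 ± 0.24 (limma, adjusted p = 0.0152), and its call was lost without detrusor replicate 2 or 3. Its second brightest probe set differed by 0.52 and was not called. Pcp4l1, the paralog of Pcp4, rose by 2.69 ± 0.65 (limma, adjusted p = 0.0382), with 998, 520.1 and 2492 in detrusor, 48.5, 91.3 and 182 in urothelium, and 273, 81.1 and 106 in stroma. Its detrusor arrays stood above all others as those of Pcp4 did. Outside detrusor it reached the array median on stroma replicate 1 alone, so its detrusor values brought it into this test. The call against stroma was lost without any single detrusor replicate or without stroma replicate 2 or 3. It was also lost without stroma 3 and urothelium 3 together, with no filter, or with day as a covariate. The 6 genes of the list called against urothelium all rose, and they included Cnn1, the smooth muscle calponin, by 6.02, and Pde1b, a calmodulin-dependent phosphodiesterase, by 1.87 (limma, adjusted p = 0.0241 and 0.0313). Gap43, another of the 6, passed the filter through the detrusor arrays alone.

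Around Ank1, 22 ankyrins, spectrins and ankyrin partners were tested. Pln, the small inhibitor of the calcium pump of the sarcoplasmic reticulum, rose in detrusor against stroma by 4.77 ± 0.67 (limma, adjusted p = 0.00530), with 3821, 12065 and 2689 in detrusor, 74.9, 116 and 157 in urothelium, and 70.7, 90.7 and 402 in stroma. It was the 1 gene of the list called in this comparison. Outside detrusor it reached the array median on stroma replicate 3 alone, so its detrusor values brought it into this test. On the probe sets used, its call and that of Camk2g held under every alternative run. The other Pln probe sets differed between detrusor and stroma by 1.72 and 1.64, and the other Camk2g probe set by 0.95. None of these other probe sets was called against stroma. Ank2 differed by -0.63 ± 0.33 and Ank3 by 1.00 ± 0.48 (limma, adjusted p = 0.281 and 0.246). Ank3 read 2788, 1812 and 2140.4 in detrusor, 8016, 5138 and 5536 in urothelium, and 713, 692 and 2553 in stroma, so it was highest in urothelium, where the difference from detrusor, -1.45, had an adjusted p of 0.0653 in limma and was called without stroma replicate 2 or 3. Without stroma replicate 3 it was called higher in detrusor than in stroma, by 1.60 (limma, adjusted p = 0.0466). Ryr3, a calcium release channel of the sarcoplasmic reticulum, rose against urothelium by 3.87 (limma, adjusted p = 0.0240).

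**Figure D5:**
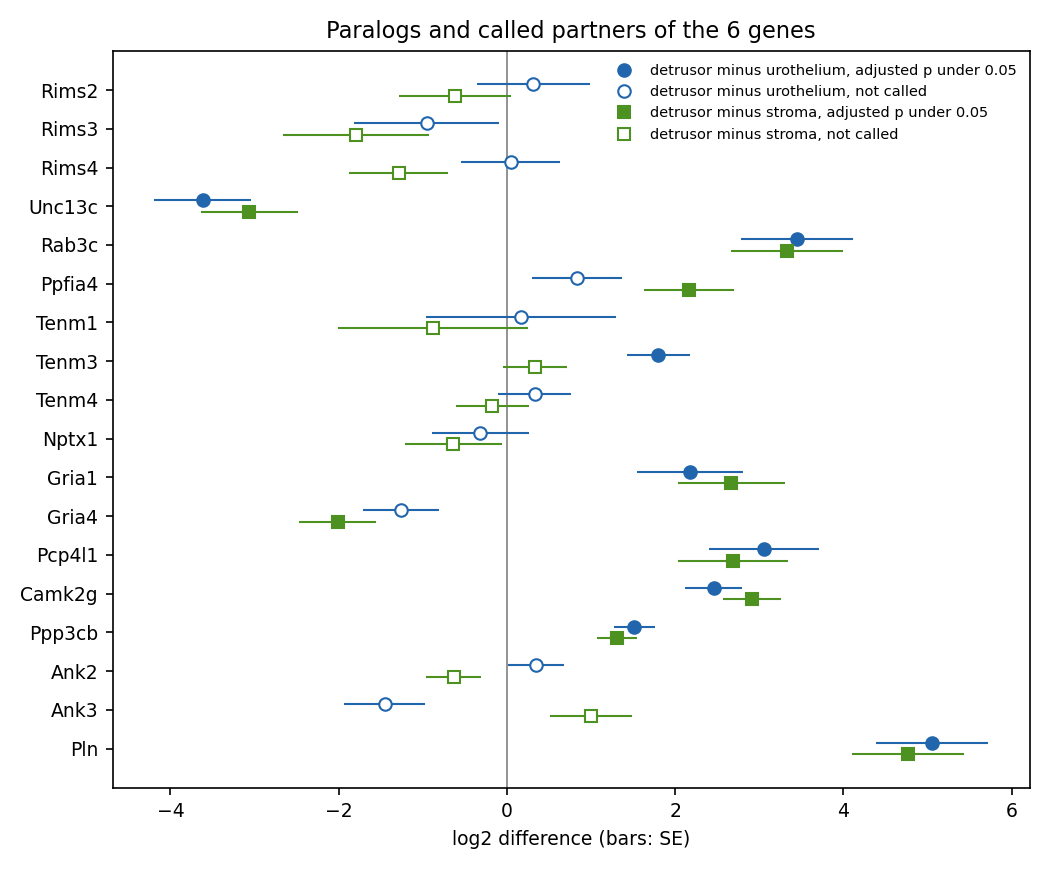
Difference in log2(intensity + pseudocount) between detrusor and urothelium (circles) and between detrusor and stroma (squares) for paralogs and called partners of the 6 genes, with bars of 1 SE and filled marks for an adjusted p under 0.05 (limma). Among the paralogs, Pcp4l1 alone is called against stroma, and Unc13c lies furthest to the lower side, at -3.06 and -3.62.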

How the data were processed

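The authors deposited linear probe set intensities made with GCOS, per the submitters' processing notes, without a version. Which GCOS algorithm and scaling target were used is not given in the sources used here. On each array, the mean without the lowest and highest 2% was 1500.01, and this scaling was kept. For arrays, their number limits the precision. Of 45101 probe sets, 64 were controls, 34945 had 1 gene symbol, 932 several and 9160 none in the annotation used. Values were taken as log2(intensity + 39.31), the 20th percentile of all values. The 22207 probe sets at or above their array median on at least 3 of 9 arrays were fitted with limma 3.58.1 in R 4.3.3 (lmFit, eBayes with trend, two-sided, Benjamini-Hochberg), with layer as the term, and with layer and day for the day comparison. Related genes were fitted over 13064 genes, by the probe set with the highest mean.

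The members, gene lists and markers were chosen with earlier results of these data known. Named were all member probe sets, the 3 genes most like each member, up to 4 called genes per list, and the close paralogs of the members. Other genes were named after their values were seen. Nptxr, a relative of Nptx2, was not analysed here. On simulated data with 22207 probe sets, the test of urothelium against stroma found 34% of differences set at 2 log2 units and 78% at 4, and the day test 22% and 84%. With 13064 genes, detrusor against stroma gave 50% and 92%, and detrusor against urothelium 60% and 92%. The differences were set on features drawn from all that were tested. Over the tested probe sets the median standard error was 0.49 log2 units for urothelium against stroma and 0.42 for day. Member probe sets reached 1.30 and 1.10, so these shares overstate what the tests could find for members with such errors. Alternatives were quantile normalization, median centring, pseudocounts of 8.13 and 232.88, no filter, array weights, day as a covariate, the best probe set per gene, and leaving out arrays.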

Additional observations from a re-analysis of the deposited data

How the results depend on the processing

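The number of arrays, 3 a layer, limits these results, and no array was set aside for its own quality. No paired analysis was possible because the labels give no replicate numbers that the layers share. Of 1579 recomputed values, 1420 kept direction and side of the threshold, or stayed within the replicate spread. Median centring moved the median of all genes to 0.25 in detrusor against stroma (-0.16 as deposited) and to 0.31 in urothelium against stroma (-0.12). The differences of the 6 brightest probe sets between detrusor and the other layers kept their sign in all settings. Taking the best probe set per gene moved the median member difference to 5.42 against urothelium and 5.39 against stroma, and leaving out single arrays moved it between 2.59 and 3.46 and between 2.29 and 2.81. Member calls stayed at 0 for urothelium against stroma and for day in each leave-one-out fit, and 1 was made for urothelium against stroma without stroma 3 and urothelium 3. Related genes called numbered between 2 and 12 (detrusor against stroma), 7 and 22 (detrusor against urothelium) and 0 and 5 (urothelium against stroma) when single arrays were left out. Leaving out single detrusor arrays with the probe sets of the full fit kept, an alternative chosen after seeing the data, gave 4, 3 and 2 calls against stroma and 10, 11 and 8 against urothelium. Detrusor against urothelium gave 27 with array weights. Urothelium against stroma gave 2 with median centring, 3 with the pseudocount at the median and 5 without stroma 3 and urothelium 3.

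Some uncalled differences between urothelium and stroma changed sign. With quantile normalization they were 0.20 for Ank1 1425677_a_at, 0.16 for Nptx2 1420720_at, 0.42 for Nptx2 1449960_at and 0.058 for Pcp4. With median centring they were 0.22 and 0.34 for Ank1 1419421_at and 1425677_a_at, 0.18 and 0.41 for Nptx2 1420720_at and 1449960_at, and 0.23 for Pcp4. With the pseudocount at the median they were 0.045 for Ank1 1425677_a_at, 0.084 for Nptx2 1420720_at and 0.061 for Pcp4, and with array weights 0.044 for Ank1 1425677_a_at and 0.089 for Pcp4. Without stroma 3 and urothelium 3 they were -0.88 for Rims1 1435667_at, -0.38 for Stum, 0.34 for Tenm2 1420718_at and -0.0038 for Tenm2 1457273_at. In that setting the day difference was -0.47 for Ank1 1419421_at, -0.0065 for Pcp4, -0.049 for Rims1 1435667_at and -0.042 for Stum. Rims3 stood there at 2.63 against urothelium (limma, adjusted p = 0.0158) and 0.87 against stroma, since its other probe set then had the higher mean, and Tenm3 at -0.084 against stroma. Against urothelium, Rims4 stood at -0.21 with array weights and -0.057 with day as a covariate, and Tenm1 at -0.78 with array weights and -0.12 with the pseudocount at the median. Tenm4 stood at 0.24 against stroma with median centring. The cause of these changes was not tested.

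Leaving out single arrays also turned signs. For urothelium against stroma the ranges were -1.64 to 0.66 and -0.75 to 0.51 for Ank1 1419421_at and 1425677_a_at, -2.06 to 0.98 and -0.18 to 0.15 for Nptx2 1420720_at and 1449960_at, -1.40 to 1.07 for Pcp4, -1.46 to 1.60 for Rims1 1435667_at, -1.19 to 1.72 for Stum and -1.28 to 1.52 for Tenm2 1457273_at. For day 2 against day 1 they were -0.60 to 1.33 for Ank1 1419421_at, -0.74 to 1.78 for Nptx2 1420720_at, -0.61 to 1.64 for Pcp4, -0.12 to 2.19 for Rims1 1435667_at and -0.33 to 2.32 for Stum. For detrusor against stroma they were -2.58 to 1.20 for Rims3, -0.084 to 0.70 for Tenm3 and -0.53 to 0.013 for Tenm4. For detrusor against urothelium they were -0.28 to 0.98 for Rims2, -1.60 to 3.23 for Rims3, -0.52 to 0.29 for Tenm1 and -0.025 to 0.54 for Tenm4.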
